A study of Mus musculus with 6 samples.

Results

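The mitochondrial carrier genes of the mouse form the Slc25 family of solute carriers. They were taken here as the coding genes of the mm10 assembly whose symbol is Slc25a followed by a number, which gave 47 of the 21883 coding genes on chromosomes 1 to 19, X and Y. Open chromatin at these genes was read from ATAC-seq, in which a transposase cuts accessible DNA and the cut fragments are sequenced. The libraries came from a cell line labelled BAT whose cell type is given as brown pre-adipocyte, a cell committed to become a heat-producing fat cell. The 3 day 0 libraries carry the treatment label WT, and the 3 day 1 libraries were taken 1 day into differentiation toward brown adipocytes. The title of the series concerns loss of RUNX1 or RUNX2 in adipocytes, but none of the 6 libraries used here is labelled as carrying either deletion. Separate cultures are not stated for the replicates, so p-values measure the spread between these libraries only, and in bulk libraries a change in some of the cells cannot be told apart from a smaller change in all of them.

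Mitochondrial carriers are small membrane proteins, mostly of the inner mitochondrial membrane, that exchange nucleotides, phosphate, carboxylates, amino acids, cofactors and fatty acid derivatives between the cytosol and the matrix. In brown fat they feed a mitochondrion that burns fatty acids to make heat: an acylcarnitine carrier brings in the fuel, adenine nucleotide and phosphate carriers serve ATP synthase, and the related uncoupling protein Ucp1 lets protons leak back. The carriers are made in the cytosol and reach the inner membrane through the outer-membrane TOM complex, small TIM chaperones and the TIM22 complex.

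The 6 libraries differed in depth along with the day. The fragments counted in the file headers numbered 11011889, 8127635 and 9160156 at day 0 and 4919755, 5603667 and 7302457 at day 1, and the lists held 55511, 41993 and 39211 peaks at day 0 against 20069, 23274 and 12556 at day 1. Every day 1 library therefore had fewer fragments and fewer peaks than every day 0 library, and day and depth cannot be told apart in a plain count of peaks. For this reason the counts of carriers are also given over equal lists, made of the 12556 peaks with the lowest q-values in each library. Within day 1 the number of peaks did not follow depth. Replicate 3 had the most fragments of that day, 7302457, and the fewest peaks, 12556, and the reason was not tested. Marker genes were counted beside the label. Over all coding genes, 51.6%, 47.8% and 45.5% had a peak within 1 kb of a gene end at day 0, and 39.7%, 42.9% and 32.5% at day 1. Of 13 preadipocyte and mesenchymal genes, 7, 5 and 5 had one at day 0 and 3, 4 and 2 at day 1. These counts lie near or below the shares over all coding genes, so they do not bear the label out. None was found at Pdgfra, Dlk1, Thy1, Lum, Dcn and Zfp423. Dlk1, like Erg of the endothelial and Adgre1 of the immune list, lies in a stretch of at least 400 kb that holds no peak in any list, so its lack of a peak is not read as closed chromatin. Of 10 adipocyte markers, 4, 3 and 3 had one at day 0 and 4, 5 and 5 at day 1, with none at Cidea, Ucp1 and Lep. The counts were 0 or 1 of 8 for endothelial genes, 0 to 3 of 8 for immune genes and 0 or 1 of 6 for muscle genes, and their part in the results was not tested.

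Most carrier genes had an accessible gene end at both days. A gene-end peak, meaning a deposited peak with any base 1 kb or less from either end of the gene, was present for 35, 35 and 34 of the 47 carriers at day 0 and for 34, 33 and 30 at day 1. The shares of the family were thus 74.5%, 74.5% and 72.3%, then 72.3%, 70.2% and 63.8%, where all coding genes had 51.6%, 47.8% and 45.5% and then 39.7%, 42.9% and 32.5%. In the equal lists the order of the days turned around: 24, 25 and 21 carriers had a gene-end peak at day 0 and 29, 32 and 30 at day 1, with no overlap between the days. All coding genes turned the same way, from 27.9%, 27.7% and 26.4% at day 0 to 32.5%, 34.5% and 32.5% at day 1. No direction between the days can be read from these counts.

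**Figure D1:**
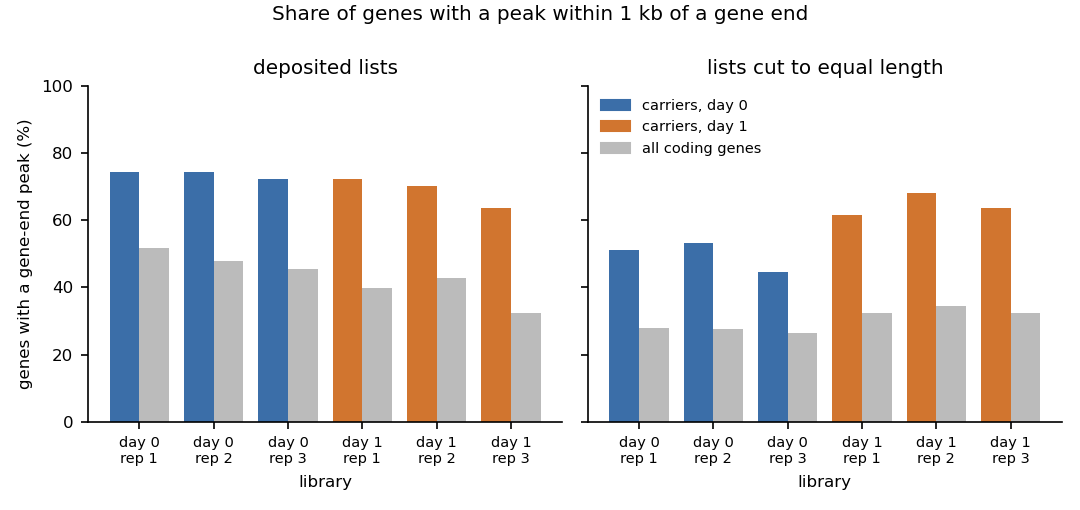
Percentage of genes with a peak within 1 kb of a gene end (vertical axis) in each of the 6 libraries (horizontal axis), for the 47 carrier genes (blue at day 0, orange at day 1) and all 21883 coding genes (grey), in the deposited lists (left) and in lists of 12556 peaks each (right). The carriers stand at 63.8% to 74.5% on the left, and on the right the 3 day 1 libraries lie above the 3 day 0 libraries for both sets of genes.

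Counted across libraries, 30 carriers (63.8%) had a gene-end peak in all 6 deposited lists, where 30.1% of coding genes did. In no list was one found for 11 carriers (23.4%), against 46.0% of coding genes. The 6 remaining carriers were called in some lists: Slc25a2 and Slc25a37 in 1 day 0 list each, Slc25a20, Slc25a22 and Slc25a53 in all but day 1 replicate 3, and Slc25a34 in the 3 day 0 lists and day 1 replicate 1. No carrier had a gene-end peak in 3 of 3 libraries of one day and 0 of 3 of the other: the day 0 class held 0 carriers where 2.43% of coding genes belonged to it, and the day 1 class 0 where 0.0457% did. In the equal lists 18 carriers (38.3%) were in all 6 (background 20.0%), 0 were at day 0 alone (background 0.274%) and 3 were at day 1 alone (background 1.85%). Those 3 were Slc25a10, Slc25a15 and Slc25a47. When day 1 replicate 3, the shortest list, was left out and the lists were set to 20069 peaks, Slc25a10 alone remained.

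**Figure D2:**
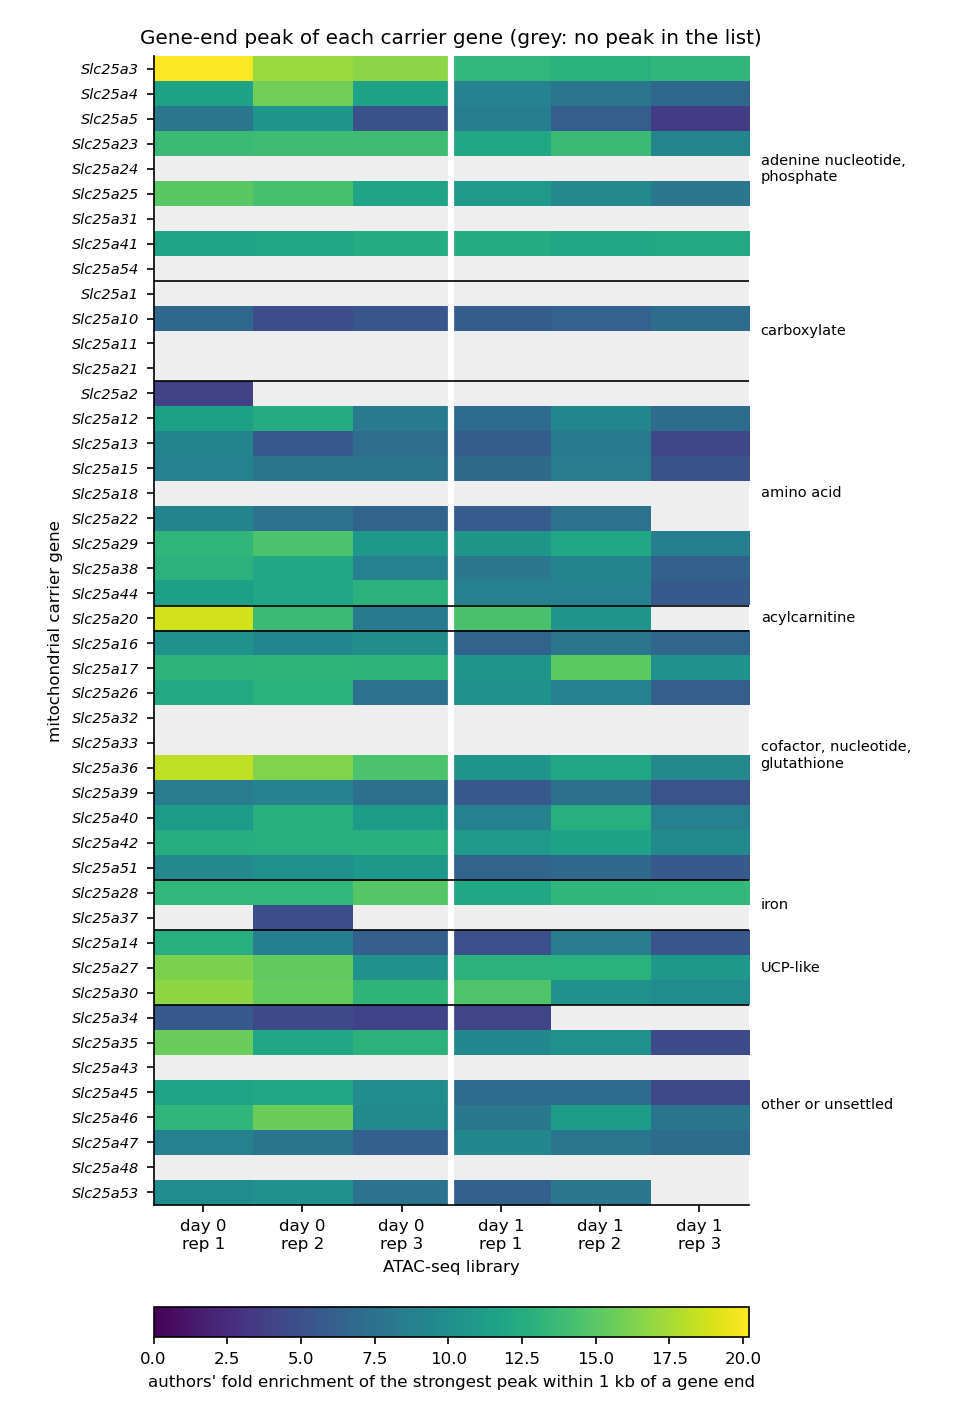
The authors' fold enrichment of the strongest gene-end peak (colour, 0 to 20.2) for 46 of the carrier genes (rows, grouped by what they carry) in each of the 6 libraries (columns), with grey where the deposited list holds no such peak. The grey rows are the 11 carriers found in no list, and Slc25a3 in day 0 replicate 1 has the highest single value.

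Of the 30 carriers called in every list, the peak lay at the annotated 5′ end for 19, at both ends for 2 (Slc25a12 and Slc25a16) and at the 3′ end for 1, Slc25a47. For the other 8 the strand was not in the table used. For 10 carriers the gene-end peak also lay within 1 kb of another coding gene, so that it belongs to either, among them Slc25a16 with Dna2, Slc25a22 with Pidd1, Slc25a25 with Naif1, Slc25a27 with Cyp39a1, Slc25a34 with Tmem82, Slc25a35 with Rangrf, Slc25a40 with Dbf4, Slc25a41 with Khsrp and Slc25a44 with Pmf1. Mean fold enrichment over the 6 libraries, which sets the pileup (the number of fragments over the peak summit) against that library's own local background, ran from 6.07 at Slc25a10 to 15.6 at Slc25a3 with a median of 10.6.

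The adenine nucleotide and phosphate carriers serve ATP synthesis and the matrix nucleotide pool. In all 6 deposited lists 6 of 9 were called, and 5 in all 6 equal lists, where the shares over all coding genes were 30.1% and 20.0%. The other 3 (Slc25a24, Slc25a31 and Slc25a54) were called in none. Slc25a3, which imports phosphate for ATP synthase, had the highest mean fold enrichment of the 30 carriers called in every list, with 20.2, 17.2 and 16.7 at day 0 and 13.4, 12.9 and 13.3 at day 1. In each day 1 library at least 1 other carrier was higher. Its peak stood among the 0.258% to 2.13% of peaks with the lowest q-values in each list. Slc25a4, the adenine nucleotide translocator of heart and muscle, stood at 11.7, 15.8 and 11.6 at day 0 and 8.97, 7.93 and 6.8 at day 1. Slc25a5, the more broadly expressed translocator, was lower, at 7.98, 10.6 and 5.03 and then 8.62, 6.13 and 3.6, and its days overlapped. Fold enrichment is computed with 1 added to pileup and background alike, so it moves with depth. It is used here to describe peaks and as an alternative scale for the fit.

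Among the ATP-Mg/phosphate carriers of the same group, Slc25a41 had the largest pileup, with 143, 105 and 87 fragments at day 0 and 85, 93 and 53 at day 1. Its region covers the annotated start of Khsrp and lies 446 bp outside Slc25a41, so this signal cannot be credited to the carrier. Slc25a23 stood at fold enrichments of 13.8, 13.9 and 13.9 at day 0 and 12.1, 13.8 and 9.2 at day 1. Slc25a25, a carrier of this type that responds to cold and fasting, had 15.0, 14.3 and 11.8 at day 0 and 10.9, 9.51 and 8.04 at day 1, at its outermost start. Slc25a31, the translocator of the male germ line, was in no list.

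Of the 4 carboxylate carriers, which move Krebs cycle intermediates, only Slc25a10 was called, in all 6 deposited lists but in no day 0 equal list. Slc25a10 exchanges malate or succinate for phosphate, and its fold enrichment was 6.85, 4.79 and 5.37 at day 0 and 5.93, 6.32 and 7.17 at day 1. Slc25a1, the citrate exporter that supplies fatty acid synthesis, Slc25a11, the oxoglutarate and malate exchanger, and Slc25a21, the oxodicarboxylate carrier, had no gene-end peak in any list. The amino acid carriers were called in all 6 equal lists for 2 of 9 and in all deposited lists for 6 of 9: the aspartate and glutamate exchangers Slc25a12 and Slc25a13, the ornithine carrier Slc25a15, the basic amino acid carrier Slc25a29, the glycine carrier Slc25a38, and Slc25a44. The shares over all coding genes were 20.0% in all equal lists, near the 2 of 9, and 30.1% in all deposited lists. The strongest gene-end peak of Slc25a44, the importer of branched-chain amino acids described in brown fat, had fold enrichments of 11.4, 11.9 and 13.0 at day 0. At day 1 it had 8.81, 8.87 and 5.74. The 8.81 came from a region over the annotated start of Pmf1, the other values from a region at the other end of Slc25a44. Their centred differences were 0.29 (SE 0.24) and -0.47 (SE 0.21), and neither passed in limma (adjusted p = 0.469 and 0.128). Slc25a29 stood highest of the group in the fit, with 79, 67 and 34 fragments at day 0 and 40, 53 and 25 at day 1. The peak of Slc25a15, one of the 3 carriers at day 1 alone in the equal lists, had 25, 17 and 15 fragments at day 0 and 13, 21 and 8 at day 1, and its centred difference of 0.37 (SE 0.26) did not pass in limma (adjusted p = 0.372). Slc25a12 had fold enrichments of 11.5, 12.5 and 8.32 and then 7.04, 9.31 and 7.17, and Slc25a13 of 9.15, 5.61 and 7.25 and then 5.97, 8.29 and 4.41. Both overlapped between the days. The glutamate carrier Slc25a22 had 9.09, 7.57 and 6.51 at day 0 and 5.77 and 7.59 in the first 2 day 1 replicates, and the related Slc25a18 was in no list.

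Slc25a20, the single carnitine-acylcarnitine carrier, brings long-chain fatty acids into the matrix for oxidation. Its gene-end peak had fold enrichments of 18.8, 13.8 and 8.38 at day 0 and 14.4 and 10.6 in day 1 replicates 1 and 2, and it was not called in day 1 replicate 3. The called values of the 2 days overlapped. It was also present in 3 equal lists of day 0 and 2 of day 1.

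Cofactor, pyrimidine nucleotide and glutathione carriers were called in all deposited lists for 9 of 11 and in all equal lists for 5. The shares over all coding genes were 30.1% and 20.0%. Slc25a36, a pyrimidine nucleotide carrier, had 18.3, 16.4 and 14.5 at day 0 and 10.5, 12.0 and 9.5 at day 1. Slc25a42, which carries coenzyme A, held 12.6, 12.7 and 12.8 and then 10.9, 11.6 and 9.65. Slc25a51, the importer of NAD+, had 9.49, 10.1 and 10.8 and then 6.48, 6.88 and 5.61. Slc25a39, which imports glutathione, had 8.51, 8.96 and 7.49 and then 5.68, 7.42 and 5.13. The days did not overlap at any of these 4 on this scale, and the scale moves with depth. Of the carriers called in every deposited list, 27 had a lower mean fold enrichment at day 1 and 3 a higher one. The same was not counted over all coding genes, so these counts are not read as a trait of the carriers. The centred differences were -0.22 at Slc25a36, 0.03 at Slc25a42 and -0.15 at Slc25a51. None of these differences passed in limma (adjusted p = 0.506, 0.932 and 0.766), and Slc25a39 was not in that fit. Slc25a17, a carrier of coenzyme A and related cofactors in the peroxisome membrane, had 13.1, 13.2 and 13.1 and then 10.6, 15.1 and 10.4, with overlap. Slc25a40, a relative of Slc25a39, had 11.0, 12.7 and 11.0 and then 8.91, 12.7 and 8.8. Slc25a33, the other pyrimidine nucleotide carrier, and Slc25a32, the carrier linked to folate and FAD, were in no list.

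The paired iron carriers differed from each other. Slc25a28, known as mitoferrin 2, was in every list at 13.4, 13.4 and 14.9 at day 0 and 12.1, 13.3 and 13.4 at day 1, whereas Slc25a37, mitoferrin 1, had a single gene-end peak, of fold enrichment 4.86, in day 0 replicate 2. All 3 carriers named as uncoupling-protein-like (Slc25a14, Slc25a27 and Slc25a30) were in every deposited list and 2 in every equal one, and Slc25a30 was among the 4 carriers with the highest mean fold enrichment, at 13.3. Carriers with other or unsettled substrates were called in all deposited lists for 4 of 8 and in all equal lists for 3. For these groups too the shares over all coding genes were 30.1% and 20.0%. Slc25a46, an outer-membrane protein of mitochondrial shape, had 13.3, 15.7 and 9.6 at day 0 and 8.12, 11.1 and 7.82 at day 1, with overlap. Slc25a34 had weak peaks, at 5.66, 4.58 and 4.08 at day 0 and 4.19 in day 1 replicate 1, and none in an equal list.

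Promoter sequences are shown first for 2 carriers whose gene-end regions changed and for the adenine nucleotide translocators. They are the 250 bases before the annotated start, from RefSeq on GRCm38.p6, 5′ to 3′, and capitals mark motif matches on either strand. The motifs searched were the CCAAT box CCAAT, the GC box GGGCGG, the ETS motif CCGGAAG, the NRF1 core TGCGCA, the nuclear receptor half-site AAGGTCA, the E-box CACGTG, the cAMP response element TGACGTCA, the RUNX motif TGTGGT and the AP-1 motif TGANTCA.
Slc25a10 chr11:120491587-120491836, plus strand: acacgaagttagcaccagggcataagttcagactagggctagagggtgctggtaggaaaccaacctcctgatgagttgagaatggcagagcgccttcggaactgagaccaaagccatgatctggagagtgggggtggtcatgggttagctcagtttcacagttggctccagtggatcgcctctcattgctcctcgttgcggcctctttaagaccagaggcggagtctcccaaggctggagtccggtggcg
Slc25a45 chr19:5877572-5877821, plus strand: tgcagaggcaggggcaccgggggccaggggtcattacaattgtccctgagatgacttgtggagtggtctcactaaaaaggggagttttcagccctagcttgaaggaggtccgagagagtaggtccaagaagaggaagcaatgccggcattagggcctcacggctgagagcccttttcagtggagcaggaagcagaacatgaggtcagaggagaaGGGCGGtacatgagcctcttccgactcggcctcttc
Slc25a4 chr8:46211063-46211312, minus strand: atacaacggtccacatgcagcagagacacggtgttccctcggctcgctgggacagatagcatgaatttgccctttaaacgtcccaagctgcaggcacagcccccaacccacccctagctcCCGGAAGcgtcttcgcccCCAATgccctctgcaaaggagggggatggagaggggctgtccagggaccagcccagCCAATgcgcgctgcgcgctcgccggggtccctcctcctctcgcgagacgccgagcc
Slc25a5 chrX:36795347-36795596, plus strand: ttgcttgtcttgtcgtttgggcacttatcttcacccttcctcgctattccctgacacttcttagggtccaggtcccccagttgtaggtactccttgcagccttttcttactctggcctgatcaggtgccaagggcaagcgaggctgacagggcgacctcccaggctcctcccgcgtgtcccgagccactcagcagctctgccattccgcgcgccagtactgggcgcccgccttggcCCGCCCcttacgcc

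The Slc25a10 stretch held none of these 9 motifs and 9 CpG dinucleotides, and the Slc25a45 stretch held 1 GC box and 7 CpG. Slc25a4 had 2 CCAAT boxes, 1 ETS motif and 18 CpG. Slc25a5 had 1 GC box and 14 CpG. A match only says that the letters are there.

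The size of the signal was compared between the days at the regions called in all 6 libraries. Peaks that overlapped were merged, the largest summit pileup of each library was taken, and the log2 values were centred on the library's median over these regions, which removes a common shift with depth. In limma over 9136 regions with Benjamini-Hochberg adjustment, 706 were higher and 629 lower at day 1. The carriers had 30 gene-end regions in this fit, at 28 genes, of which 2 were higher (6.67%, background 4.62%) and 1 lower (3.33%, background 1.77%) at adjusted p under 0.05. Their median log2 difference was 0.10, where all gene-end regions had 0.08, and 20 of 30 (66.7%) were above 0, against 60.9% of all gene-end regions. With pileups scaled to depth in place of centred, 7 of 30 were above 0 (23.3%, against 32.0% of all), and on fold enrichment 16 of 30 (53.3%, against 58.0%). The other 27 differences lay between -0.47 and 0.37 with standard errors of 0.14 to 0.29. A gene needs a value in every library to be in this comparison, so carriers called at one day only, and Slc25a5 and Slc25a39, whose peaks did not merge into 1 region with a value in all 6, are not part of it. A weak day 0 region that falls can thus drop out, whereas one that rises stays in. Slc25a47 and Slc25a10 had centred day 0 means of -1.18 and -1.15, among the lowest of the carriers. The part of this filter in their rises was not tested.

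**Figure D3:**
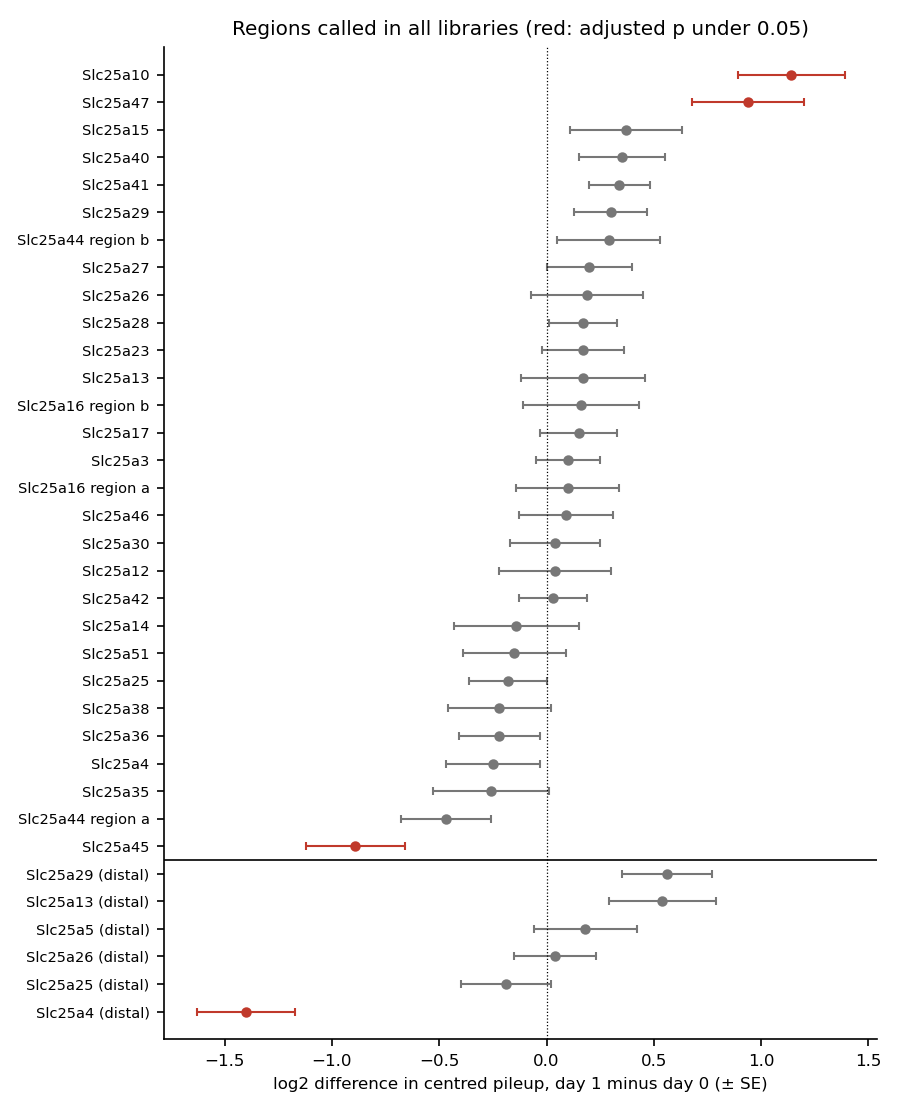
Log2 difference in centred summit pileup, day 1 minus day 0, with its standard error (horizontal axis) for 29 of the gene-end regions (above the line) and 6 distal regions (below it) of carrier genes called in all libraries, with the 4 regions past the adjusted threshold in red. Slc25a10 and Slc25a47 lie to the right of the rest, and Slc25a45 and the distal region of Slc25a4 to the left.

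Slc25a10 (NCBI gene 27376) had the largest rise among the carrier regions in the fit. Its region, chr11:120491340-120492235, covers the annotated start and had pileups of 21, 13 and 11 fragments at day 0 and 15, 21 and 16 at day 1. Scaled to depth, per 1000000 fragments, these were 1.91, 1.6 and 1.2 and then 3.05, 3.75 and 2.19. The raw pileups overlapped between the days, and the depth-scaled values did not. On the centred log2 scale the level rose from a mean of -1.15 to -0.01, a difference of 1.14 (SE 0.25, limma adjusted p = 0.000933). The difference was 0.92 with depth-scaled pileups in place of centred ones (adjusted p = 0.63) and 0.61 on the authors' fold enrichment (adjusted p = 0.0776), and neither passed. Over all alternatives the adjusted p ran from 0.000751 to 0.63.

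Slc25a47 (NCBI gene 104910), a carrier known mainly from liver, rose by 0.94 (SE 0.26, limma adjusted p = 0.00908). Its region, chr12:108857643-108858125, lies 828 bp beyond the 3′ end of the gene and 6514 bp from the nearest annotated start, so it is no promoter of this gene. It held 17, 15 and 11 fragments at day 0, then 16, 15 and 13 at day 1, or 1.54, 1.85 and 1.2 and then 3.25, 2.68 and 1.78 after scaling to depth. The scaled values overlapped, the lowest day 1 library lying under the highest of day 0. The call was lost without day 0 replicate 1 (0.87, adjusted p = 0.0521), with scaling to depth (0.73, adjusted p = 0.932) and on fold enrichment (0.50, adjusted p = 0.118), and the adjusted p over all alternatives ran from 0.00451 to 0.932.

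Slc25a45 (NCBI gene 107375) fell by 0.89 (SE 0.23, limma adjusted p = 0.00382). Its region, chr19:5877920-5878629, begins 98 bp after the annotated start of this carrier, whose substrates are not settled, and so follows the stretch printed above. It had 50, 41 and 27 fragments at day 0 and 13, 15 and 7 at day 1, which is 4.54, 5.04 and 2.95 and then 2.64, 2.68 and 0.959 after scaling to depth. Every day 0 library stood above every day 1 library on the raw scale, the depth-scaled one and fold enrichment, the last with 11.8, 12.1 and 9.9 against 7.09, 7.07 and 4.49. The call did not pass with scaling to depth (-1.11, adjusted p = 0.414) or on fold enrichment (-0.48, adjusted p = 0.131), and the adjusted p over all alternatives ran from 0.00179 to 0.414.

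The smallest adjusted p among the carrier regions was at a distal one. A region 14.5 kb upstream of the annotated start of Slc25a4 (NCBI gene 11739), chr8:46225532-46225995, had 64, 39 and 40 fragments at day 0 and 12, 9 and 8 at day 1. Scaled to depth these were 5.81, 4.8 and 4.37 against 2.44, 1.61 and 1.1, and fold enrichment fell from 18.0 ± 1.5 to 6.88 ± 1.26 (SD, n = 3 each). The days did not overlap on any of these scales. The centred level fell by 1.40 on the log2 scale (SE 0.23, limma adjusted p = 1.11e-05), and by 0.99 on fold enrichment (adjusted p = 0.000197). With depth-scaled pileups it was -1.61, with adjusted p = 0.0697, the one alternative in which it did not pass. The gene-end region of the same gene, chr8:46210731-46211367, with 37, 41 and 25 fragments at day 0 and 18, 18 and 11 at day 1, differed by -0.25 (SE 0.22, adjusted p = 0.512). Nearest means nearest in bases, and whether the region acts on Slc25a4 was not tested.

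**Figure D4:**
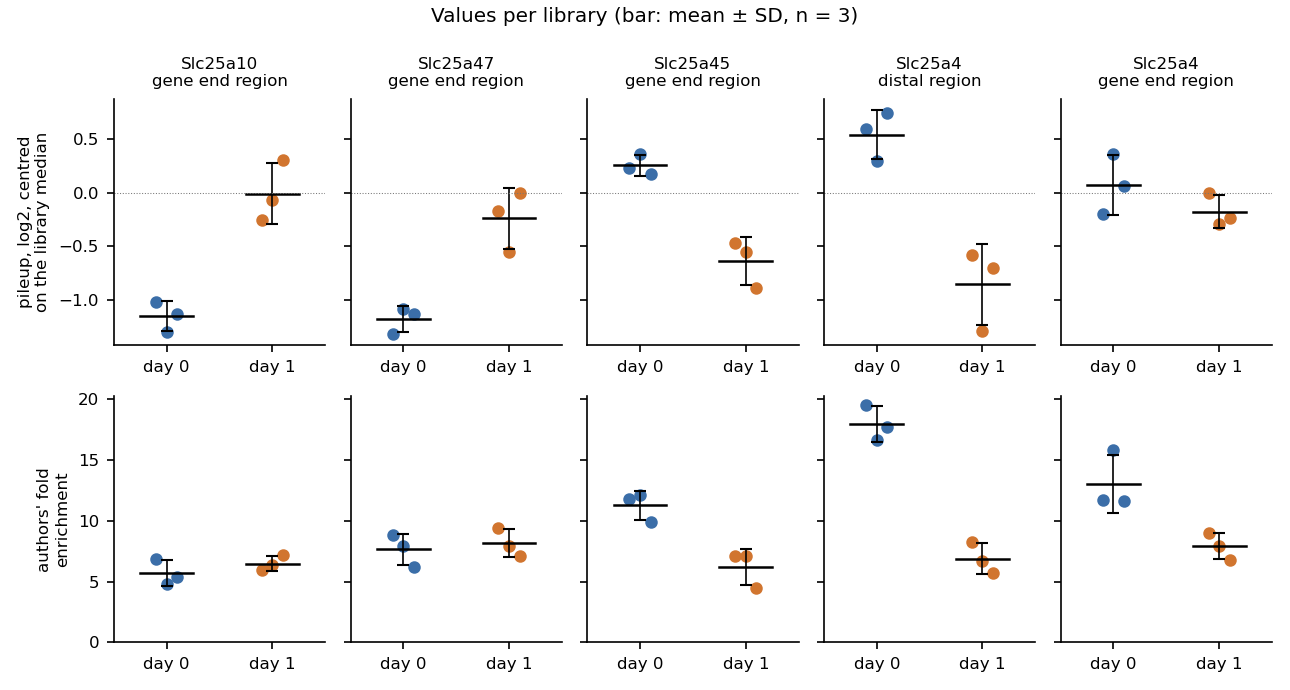
Values in each of the 3 libraries per day (points, blue at day 0 and orange at day 1) with mean and SD (lines) for the 4 carrier regions past the threshold and the gene-end region of Slc25a4, as log2 pileup centred on the library median (top) and as the authors' fold enrichment (bottom). The distal region of Slc25a4 separates the days on both scales, whereas Slc25a10 and Slc25a47 separate them only at the top.

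The gene-end calls depended on the scaling. With depth-scaled pileups, 30 of all 9136 regions were higher and 48 lower, the median over all regions moved from 0.06 to -0.15, a shift of 0.21, and 0 carrier gene-end regions passed in limma, with 2 at an unadjusted p under 0.05 (5 with centring). On the authors' fold enrichment 0 passed in limma, with 4 at an unadjusted p under 0.05. Without day 1 replicate 3, 35 carrier regions could be fitted and 4 were higher: Slc25a10, Slc25a47, Slc25a29 (0.49, adjusted p = 0.0486) and Slc25a41 (0.49, adjusted p = 0.0115), the last at the region over the annotated start of Khsrp. Among all gene-end regions 548 of 7000 were higher in that fit, against 264 of 5715 with all libraries. The median over all gene-end regions was 0.16 in that fit and 0.08 with all libraries.

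Distal regions were defined as merged peaks more than 1 kb from any coding gene end, with a carrier as the nearest coding gene within 100 kb. There were 66 of these among 46127 for all coding genes. They were near 27 carriers (57.4%, against 54.9% of all coding genes), and 32 of the 66 lay inside the carrier gene itself. Of the 66 the day 0 libraries held 50, 30 and 27 and the day 1 libraries 19, 18 and 9. All distal regions numbered 35531, 25549 and 23374 at day 0 and 9907, 12030 and 5105 at day 1. The carrier regions were 0.141%, 0.117% and 0.116% of these at day 0 and 0.192%, 0.15% and 0.176% at day 1. A peak in 1 list only was the basis of 33 of the 66, whereas this held for 39.0% of all distal regions. In all 6 lists were 6 regions (9.09%, background 6.6%), near Slc25a4, Slc25a5, Slc25a13, Slc25a25, Slc25a26 and Slc25a29. In 3 of 3 day 0 lists and no day 1 list were 8 regions (12.1%, background 19.6%), and 1 region (1.52%, background 0.709%) had the opposite pattern.

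**Figure D5:**
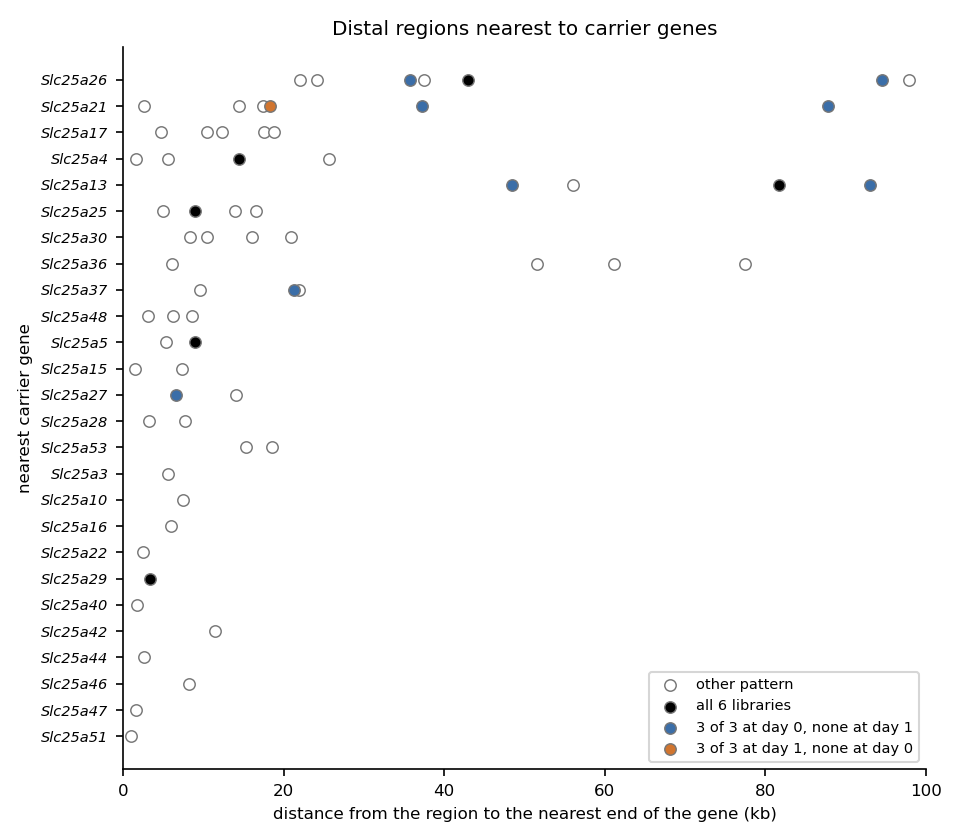
Of the 66 distal regions, 65 by distance from the nearest end of the nearest carrier gene (horizontal axis, kb) and by carrier (rows, ordered by number of regions), filled black when in all 6 libraries, blue in 3 of 3 day 0 libraries and none of day 1, orange the reverse, and open otherwise. Slc25a26, Slc25a21 and Slc25a13 hold 6 of the 8 blue regions, and Slc25a21 the single orange one.

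Slc25a21 was the one carrier with regions of both patterns, and it had 6 distal regions but no gene-end peak. Inside this long gene a region at chr12:57159955-57160257 had fold enrichments of 17.1, 15.7 and 9.82 at day 0 and no peak at day 1. It lies 386 bp from an annotated inner start. A second region inside the gene, chr12:57109457-57109646, had 7.38, 6.96 and 4.57 at day 0 and none at day 1. The third, chr12:57178773-57179194, had no peak at day 0 and 13.5, 11.9 and 9.94 at day 1, and lies 18.3 kb from the outermost start. Directly beside it, chr12:57179339-57180106 had 10.4, 7.76 and 7.68 at day 0 and, at day 1, 4.65 in replicate 1 only. The third region is therefore not read as a site that was closed at day 0. In the equal lists the first and the third kept their patterns. The sequence before the inner start is shown because the first of these regions lies beside it. It holds 1 RUNX motif, in capitals and read on the other strand, and 2 CpG.
Slc25a21 inner start chr12:57160644-57160893, minus strand: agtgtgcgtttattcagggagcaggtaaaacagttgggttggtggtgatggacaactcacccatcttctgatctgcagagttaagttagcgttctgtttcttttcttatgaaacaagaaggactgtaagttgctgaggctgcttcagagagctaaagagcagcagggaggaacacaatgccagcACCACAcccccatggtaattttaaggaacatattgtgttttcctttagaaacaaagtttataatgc

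At the other carriers with such day 0 regions, Slc25a13 had one inside the gene at 13.4, 12.6 and 10.3 and one 93.0 kb away at 8.72, 8.23 and 7.07. Slc25a26, which carries S-adenosylmethionine and had the most distal regions (7, with 5 for Slc25a17), had one 94.5 kb away at 9.84, 7.84 and 4.14 and one at 8.28, 7.29 and 6.81 that lies within the gene Lrig1. Slc25a27 had one inside the gene at 6.24, 5.7 and 5.88. Slc25a37, with almost no gene-end signal, had one 21.3 kb away at 7.38, 4.29 and 7.35. The day 1 lists are shorter, and the part of list length in these absences was not tested. In the equal lists 2 of 18 regions were at day 0 alone (11.1%, background 12.7%), 3 at day 1 alone (16.7%, background 6.49%) and 2 in all 6 (11.1%, background 11.2%). The 2 at day 0 alone were the region inside Slc25a13 and the one inside Slc25a21. At day 1 alone were the Slc25a21 region, one 5.93 kb from Slc25a16 (7.82, 7.29 and 9.16 at day 1) and one inside Slc25a29, whose peak the deposited lists hold at both days. The Slc25a16 region also had peaks in the deposited lists of day 0 replicates 1 and 2, at 5.72 and 7.12. It is therefore not read as absent at day 0.

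Among the 6 distal regions in the fit, 1 was lower (16.7%, background 15.4%), the Slc25a4 region above, and 0 were higher (background 12.9%) in limma, with 2 higher at an unadjusted p under 0.05. These 2 were near Slc25a29 (0.56, SE 0.21, adjusted p = 0.0668) and Slc25a13 (0.54, SE 0.25, adjusted p = 0.151). With 1 library left out, 1 distal region was higher in 2 of the 6 fits: the Slc25a29 region without day 1 replicate 2 (0.72, adjusted p = 0.027) and, without day 0 replicate 3, a region near Slc25a16 that is not in the full fit (1.36, SE 0.33, adjusted p = 0.00452). The Slc25a25 region, chr2:32423443-32424470, had 42, 42 and 35 fragments at day 0 and 22, 30 and 10 at day 1 and differed by -0.19 (SE 0.21, adjusted p = 0.638). The region near Slc25a5 had fold enrichments of 8.95, 8.5 and 8.48 and then 7.19, 6.23 and 8.13 (difference 0.18, SE 0.24, adjusted p = 0.698), and the Slc25a26 region, within Lrig1, 12.3, 11.3 and 10.3 and then 10.6, 10.2 and 7.46 (difference 0.04, SE 0.19, adjusted p = 0.934). The Slc25a25 region lies over an inner annotated start of that gene, 8.96 kb from the 3′ end, so this carrier had an accessible outer and inner start in every library. Another inner start, under chr2:32430989-32431352, had fold enrichments of 12.0, 8.12 and 10.4 at day 0 and 5.07 and 5.39 in day 1 replicates 1 and 2, and no peak in day 1 replicate 3.

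The starts of Slc25a25 that were open in all 6 lists are shown, an outer and an inner one.
Slc25a25 outer start chr2:32451471-32451720, minus strand: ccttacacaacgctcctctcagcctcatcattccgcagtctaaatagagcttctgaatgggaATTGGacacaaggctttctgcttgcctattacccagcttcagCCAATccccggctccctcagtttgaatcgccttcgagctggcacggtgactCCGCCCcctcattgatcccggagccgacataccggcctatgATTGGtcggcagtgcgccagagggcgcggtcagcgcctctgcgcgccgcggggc
Slc25a25 inner start chr2:32424067-32424316, minus strand: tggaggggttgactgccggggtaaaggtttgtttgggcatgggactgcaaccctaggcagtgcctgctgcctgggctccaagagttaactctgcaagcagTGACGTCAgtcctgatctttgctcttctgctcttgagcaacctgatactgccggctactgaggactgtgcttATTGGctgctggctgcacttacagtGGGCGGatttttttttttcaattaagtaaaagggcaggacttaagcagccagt

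The outer stretch had 3 CCAAT boxes, 1 GC box and 19 CpG. The inner stretch had 1 CCAAT box, 1 GC box, 1 cAMP response element and 4 CpG, and its element is 1 of 2 among the 46 promoter windows of carriers (4.35%, against 2.23% of 21262 windows of all coding genes).

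Of the 11 carriers without a gene-end peak, 7 lay wholly inside a stretch of at least 400 kb in which none of the 6 lists held a peak. Slc25a1 was in a stretch of 896 kb with 26 coding genes, among them Ranbp1, Dgcr8 and Txnrd2, which are active in most cell types. Slc25a11 was in one of 422 kb with 17 coding genes, including Pfn1 and Nup88. Slc25a24 and Slc25a54 shared one of 884 kb, Slc25a18 was in one of 679 kb, Slc25a32 in one of 626 kb and Slc25a31 in one of 521 kb. Such stretches held 3097 coding genes in all (14.2%, against 14.9% of carriers). Why these stretches hold no peak was not tested, so no peak at these 7 carriers is not read as closed chromatin. Outside the stretches 75.0% of 40 carriers and 35.0% of 18786 coding genes had a gene-end peak in all 6 lists, and the carriers there with none in any list were Slc25a21, Slc25a33, Slc25a43 and Slc25a48. Slc25a33 lay in a peak-free stretch of 138 kb and Slc25a43 in one of 105 kb. For Slc25a33 the nearest peak was 6.25 kb away in day 0 replicate 1, but 181 to 1300 kb away in every other list. No peak at Slc25a33 is therefore not read as closed chromatin either.

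The promoters of Slc25a1 and Slc25a33 are shown because no peak was found there although the sequence is rich in CpG.
Slc25a1 chr16:17928220-17928469, minus strand: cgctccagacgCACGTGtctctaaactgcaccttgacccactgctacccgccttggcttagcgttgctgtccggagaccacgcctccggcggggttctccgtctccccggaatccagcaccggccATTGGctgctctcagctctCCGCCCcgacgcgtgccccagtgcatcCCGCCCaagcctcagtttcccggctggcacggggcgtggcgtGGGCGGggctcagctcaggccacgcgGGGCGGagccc
Slc25a33 chr4:149774268-149774517, minus strand: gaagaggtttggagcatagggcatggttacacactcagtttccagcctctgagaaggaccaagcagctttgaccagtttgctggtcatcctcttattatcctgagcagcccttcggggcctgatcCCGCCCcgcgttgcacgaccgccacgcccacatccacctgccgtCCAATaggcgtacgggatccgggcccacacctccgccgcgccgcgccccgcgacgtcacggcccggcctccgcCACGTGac

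The Slc25a1 stretch had 25 CpG, 4 GC boxes, 1 CCAAT box and 1 E-box. The Slc25a33 stretch had 23 CpG, 1 GC box, 1 CCAAT box and 1 E-box. Both exceed the 9 CpG of the open Slc25a10 promoter and the 7 of Slc25a45.

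Over the 36 carriers matched in the promoter table, 46 windows of 300 bases (250 before and 50 after each start) had a median GC content of 59.4% and 15 CpG, where the 21262 coding windows had 56.3% and 13. The windows of carriers with a gene-end peak in all 6 lists had 60.7% and 17, and those of carriers with none in any list 57.0% and 15. These sets are not open and closed promoters. In the first set no list held a peak over the windows of Slc25a23, Slc25a45 and Slc25a47. The second set includes carriers whose lack of a peak is not read as closed chromatin. A GC box was in 82.6% of carrier windows against 46.2% of all, and a CCAAT box in 47.8% against 38.2%. The E-box was in 17.4% against 7.84%, the ETS motif in 15.2% against 11.6%, and the NRF1 core in 8.7% against 9.74%. The RUNX motif was in 8.7% against 15.0%, the AP-1 motif in 4.35% against 6.99%, and the nuclear receptor half-site in 2.17% against 4.08%. These are descriptions with no test, and a gene can have several windows that overlap. GC content differed between the sets, and its part in these shares was not tested. The table did not hold 11 carriers, among them Slc25a2, Slc25a26, Slc25a27, Slc25a32, Slc25a35, Slc25a37, Slc25a41, Slc25a44, Slc25a46 and Slc25a51.

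Genes that work beside the carriers were counted in the same way. Of 26 other mitochondrial transport genes, among them the pyruvate carrier subunits Mpc1 and Mpc2, the voltage-dependent anion channels Vdac1, Vdac2 and Vdac3 and the calcium uniporter Mcu, 19 had a gene-end peak in all 6 deposited lists and 14 in all 6 equal ones. The 3 in no deposited list were the uncoupling proteins Ucp1, Ucp2 and Ucp3, none of which lies in a peak-free stretch of the length given above. Of 16 genes of the carrier import machinery, 13 were in all 6 deposited lists, among them Timm22, Tomm20 and Tomm40, and 7 in all 6 equal ones, and 0 were in no deposited list. Over all coding genes the shares in all 6 were 30.1% and 20.0%. In the deposited lists no gene of either set changed from 3 of 3 at one day to 0 of 3 at the other.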

How the data were processed

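ATAC-seq peak lists of 6 libraries were used, 3 per day. Per the file headers, the authors called peaks with MACS2 2.2.7.1 on each library alone, in paired-end mode without a control, at a q-value cutoff of 0.05, on alignments already filtered for duplicates. The submitters' processing notes name mm10, Trim Galore 0.6.7, Bowtie2 2.4.4 and SAMtools 1.15.1. Whether reads with several placements were kept is not given in the sources used here. The deposited pileup is a coverage signal, the number of fragments over a summit, not scaled to depth. The deposited fold enrichment is a ratio to the local background of the same library, and the deposited −log10 p- and q-values rank peaks within a list. Each header gives the fragments used, 4919755 to 11011889.

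Gene ends came from RefSeq on GRCm38.p6, which gives the mm10 coordinates. Peaks on patch, alternate and unplaced sequences (7 to 19 per library) were left out. Merged regions need 1 shared base. Regions with a peak in all 6 libraries were compared with limma 3.58.1 (trend, R 4.3.3) on log2 pileup centred on the library median, with Benjamini-Hochberg adjustment over 9136 regions. Presence counts have no test: an exact permutation of 3 against 3 libraries cannot go below 0.1. In simulated pileups for this comparison on 9136 regions, 65% of changes of 1 and 90% of changes of 2 on the log2 scale were found, with 1.27% false calls. The simulation dropped no region by peak calling, unlike the data. Tables were made with Python 3.11.15 and pandas 2.3.3.

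Values per library are given for carriers whose presence or signal changed, the 4 with the highest fold enrichment, those with most distal regions, and 13 named for a role in fat cells or energy metabolism. One carrier enters all counts but is not reported here on its own. The members and lists were chosen with earlier results of these data known. Alternatives were other scalings and models, equal lists, a −log10 q of at least 5, other windows, distances and overlaps, and each library left out. Added after seeing the data were a count outside long peak-free stretches and equal lists without day 1 replicate 3.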

Additional observations from a re-analysis of the deposited data

How the results depend on the processing

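The presence of carriers depended on how long the lists were. The mean number of carriers with a gene-end peak was 34.7 ± 0.577 at day 0 and 32.3 ± 2.08 at day 1 (SD, n = 3), a difference of -2.33. In equal lists the day 0 mean was 23.3 and the difference turned to 7.0. In equal lists without day 1 replicate 3 the day 0 mean was 29.3 and the difference 4.17. At a −log10 q of at least 5 the means were 33.0 and 29.0 (-4.0), with a 500 bp window 33.7 and 29.3 (-4.33), by summit 34.0 at day 0, and by transcription start alone 26.0 and 22.7 of 36 carriers. Carriers in all 6 lists fell from 30 to 18 in equal lists. Day 0 alone held 0 carriers, but 1 with a 500 bp window (Slc25a46) and 1 by transcription start (Slc25a21), and 0 to 1 with a library left out, the 1 being Slc25a34 without day 1 replicate 1. Day 1 alone held 3 in equal lists and 1 in equal lists without day 1 replicate 3. Distal regions at day 0 alone, 8 as deposited, were 2 in equal lists, 2 in equal lists without day 1 replicate 3 and 5 within 50 kb. Those at day 1 alone, 1 as deposited, were 3 in equal lists, 4 in equal lists without day 1 replicate 3, and 1 to 3 with a library left out, the 3 without day 1 replicate 3. The cause was not tested.

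Scaled to depth and on fold enrichment, 0 carrier gene-end regions were higher and 0 lower, and the median carrier difference scaled to depth was -0.11. With a library left out 1 to 4 were higher, 1 without day 0 replicate 1 and 4 without day 1 replicate 3. Among all gene-end regions, 164 of 5720 and 548 of 7000 were higher in those fits. Distal carrier regions that were higher numbered 0 with all libraries and 0 to 1 with a library left out. With the replicate block 2 were higher and 1 lower, as without it. Same-numbered libraries of the days correlated at -0.036, 0.054 and 0.008, so the numbers were not taken as pairs. Of 12 alternatives each, Slc25a10 passed in 10, Slc25a45 in 10, Slc25a47 in 9 and the distal Slc25a4 region in 11, and none reversed. Depth limits what can be said of weak peaks: a peak missing from a day 1 list was not detectable there, which does not show that it is absent.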
